A study of Mus musculus with 16 samples.

Results

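The genes described here carry the adrenergic and cyclic AMP (cAMP) signal of fat cells, and they were compared between murine brown adipose tissue (BAT) and subcutaneous white adipose tissue (sWAT). The list holds 41 genes of this pathway, and the rule that picks their probe sets uses no measured value. The genes on the list were chosen with earlier results of these data known, so its shares are not those of a list chosen blind. A probe set of the array was taken as a member when the annotation gave it exactly 1 gene symbol and that symbol was on the list. This gave 108 probe sets for 36 of the 41 genes, out of 18194 genes with such a probe set. Adra1a, Adra1d, Adra2b, Adrb1 and Rapgef4 were named by no such probe set and were not analysed here.

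BAT came from the interscapular region and sWAT from the subcutaneous region of LACA mice. The labels call all mice male, fed standard chow, weighing 25 ± 3 g and given no treatment, and the age is not given in the sources used here. There were 8 Affymetrix mouse arrays of BAT and 8 of sWAT, as 4 replicates per tissue with 2 arrays each. The methods state that 4 mice were used with both tissues taken from each, but the labels do not say which replicates share a mouse. The fit paired replicates by number. Its p-values thus measure the spread of BAT minus sWAT differences between numbers, which is not known to be a spread between mice.

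Noradrenaline released by sympathetic nerves is the main signal that switches on heat production in brown fat and fat breakdown in white fat. Beta-adrenergic receptors pass it through the stimulatory G protein to adenylyl cyclases, which make cAMP, while alpha-2 receptors oppose this step and alpha-1 receptors act through calcium. Cyclic AMP binds the regulatory subunits of protein kinase A (PKA) and frees its catalytic subunits, which phosphorylate lipases, droplet proteins and the transcription factor CREB. Phosphodiesterases break cAMP down, receptor kinases and arrestins quench the receptors, and anchoring proteins hold PKA at particular places in the cell.

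CREB and its relatives bind the cAMP response element (CRE). Promoter sequences of members that differed in opposite directions are shown first, with the member that had a complete CRE in a window searched. RefSeq promoter windows of the GRCm38.p6 build run from 250 bases before to 50 bases after a gene start. The search covered 62 windows of 30 of the 41 genes. The other genes of the list were not searched, whether or not they have such a window, so their motifs were not counted. The windows are written 5′ to 3′ on the strand of the gene. Prkaca lies at chr8:83972728-83973027 on the plus strand, Adcy9 at chr16:4420449-4420748 on the minus strand, Adcy7 at chr8:88282742-88283041 on the plus strand and Prkar1a at chr11:109650699-109650998 on the plus strand. Capitals mark the CRE core TGACG, or CGTCA where it lies on the other strand, and in Prkar1a only the full CRE TGACGTCA, so that a further core 187 bases before its start stays in lower case.
Prkaca: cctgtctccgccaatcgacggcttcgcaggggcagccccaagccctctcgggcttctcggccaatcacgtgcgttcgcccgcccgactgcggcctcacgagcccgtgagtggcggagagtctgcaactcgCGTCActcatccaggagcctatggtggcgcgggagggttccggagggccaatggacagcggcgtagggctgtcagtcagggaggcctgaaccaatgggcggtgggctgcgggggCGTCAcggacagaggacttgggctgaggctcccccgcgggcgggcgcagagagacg
Adcy9: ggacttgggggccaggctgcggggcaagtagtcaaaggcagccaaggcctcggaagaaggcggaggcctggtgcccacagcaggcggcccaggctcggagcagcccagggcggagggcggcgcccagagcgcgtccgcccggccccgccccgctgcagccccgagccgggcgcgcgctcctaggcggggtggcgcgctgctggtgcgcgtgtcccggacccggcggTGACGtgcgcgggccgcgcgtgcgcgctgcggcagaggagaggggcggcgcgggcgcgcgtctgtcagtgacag
Adcy7: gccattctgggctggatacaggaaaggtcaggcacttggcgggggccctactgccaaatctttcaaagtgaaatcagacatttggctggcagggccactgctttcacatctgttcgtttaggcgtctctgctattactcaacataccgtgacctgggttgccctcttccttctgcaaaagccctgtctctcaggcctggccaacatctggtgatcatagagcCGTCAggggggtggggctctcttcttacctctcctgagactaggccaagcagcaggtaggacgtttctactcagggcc
Prkar1a: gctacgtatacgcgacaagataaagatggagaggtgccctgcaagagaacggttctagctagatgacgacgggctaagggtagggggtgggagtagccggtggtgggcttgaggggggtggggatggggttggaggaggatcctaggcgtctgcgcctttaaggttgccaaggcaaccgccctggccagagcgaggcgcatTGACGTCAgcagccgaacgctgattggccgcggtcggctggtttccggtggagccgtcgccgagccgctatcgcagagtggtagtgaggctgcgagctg

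The first CRE core lay 120 bases before the start in Prkaca, 24 before it in Adcy9 and 28 before it in Adcy7, and the full CRE lay 49 bases before it in Prkar1a. The CRE core, searched on both strands and counted also where it is part of a full CRE, was present in 19 of 62 member windows (30.6%), against 20.8% of all 32851 windows. It occurred in 15 of the 30 genes with a window searched, and its share over all genes was not counted. Overlapping windows of a gene, as in Gnas and Prkar1a, can hold the same core and count it more than once. The full CRE was in 2 member windows (3.23%), both of Prkar1a and overlapping, against 1.79% of all windows. The palindromic EBF motif was in 1 member window, of Prkar1b (1.61%, against 0.904% of all), and the estrogen-related receptor motif TCAAGGTCA was in 0 of 62 (against 0.423% of all). A match describes these letters only, and its part in expression was not tested.

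The deposited values were log2 intensities, set to a median of 0 over the 16 arrays for each probe set. A value of 1 therefore stands for 2-fold above that median, and levels of different genes could not be compared. The value of a gene is the mean of its probe sets, and differences are BAT minus sWAT on the log2 scale with the standard error (SE) of the fit, 4 replicates per tissue. Of the 16 arrays, 2 had low 5′ signal, with 5′ minus 3′ control probe sets at -3.69 in the second array of BAT replicate 1 and -4.92 in the first array of sWAT replicate 3, against -1.36 to 0.334 elsewhere. Xist, the RNA of the inactive X chromosome, was at 5.74, 6.26 and 6.36 in BAT replicates 1 to 3 and at -0.26 in BAT replicate 4, against -0.27 to -0.11 in sWAT. BAT replicates 1 to 3 thus stood apart from BAT replicate 4 and from sWAT in a gene that is active in females, although the labels call all mice male. Genes of the Y chromosome (Eif2s3y, Uty and Kdm5d) ran the other way, with Eif2s3y at -2.94, -3.16 and -3.21 in BAT replicates 1 to 3 and at 0.4 in BAT replicate 4, against -0.05 to 0.26 in sWAT. For numbers 1 to 3, BAT and sWAT replicates of the same number thus differed in sex-linked genes and may not come from 1 animal, which bears on the pairing by number in the fit behind every adjusted p. The fit without that pairing still sets BAT replicates 1 to 3 against sWAT, so it does not separate this difference from tissue. The part of this difference in the results was not tested.

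BAT was checked against markers of brown adipocytes, and all 9 marker genes were higher in BAT, with list means of 1.72 to 3.06 in BAT and -2.62 to -1.26 in sWAT. Ucp1, the uncoupling protein of brown fat, was at 4.33, 4.53, 4.39 and 2.75 in BAT replicates 1 to 4, against -5.18 to -2.88 in sWAT. Markers of other cell types also moved with the tissue. The 15 of 15 skeletal muscle fibre genes were higher in BAT (list means 1.93 to 3.7 in BAT and -1.73 to -1.42 in sWAT), and the highest was BAT replicate 4, which had the lowest brown adipocyte mean. All 10 measured B cell genes were lower in BAT (-2.2 to -1.75 in BAT and 1.91 to 2.6 in sWAT), as were all 9 measured T cell genes (-1.87 to -1.06 in BAT and 1.5 to 2.3 in sWAT). Of 10 macrophage genes 1 was higher and 5 were lower, and of 9 general adipocyte genes 5 were higher and 0 lower. Fibroblast genes were lower in 5 of 8 cases, while 4 of 9 smooth muscle genes, 1 of 9 endothelial genes and 2 of 6 nerve genes were higher. In whole tissue, fewer cells of a type and less RNA per cell cannot be told apart, and the part of these other cell types in the results that follow was not tested.

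**Figure D1:**
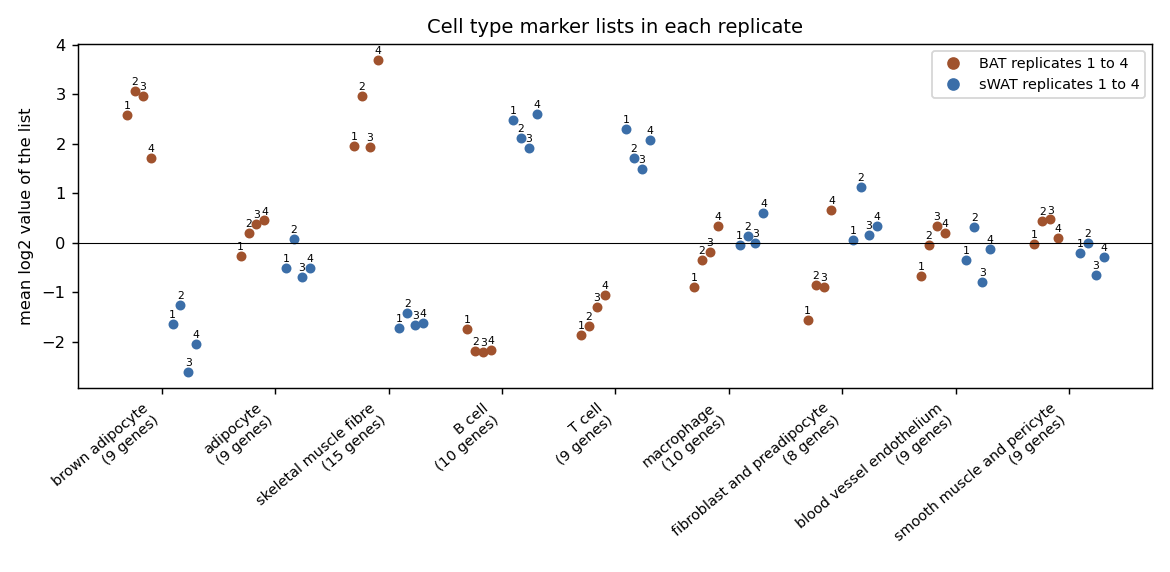
Mean log2 value of each marker list (vertical axis, probe-set medians set to 0) in each replicate, BAT left of sWAT within a list, numbered by replicate. Brown adipocyte and muscle fibre lists lay higher in all 4 BAT replicates and B and T cell lists lower, and BAT replicate 4 had the lowest brown adipocyte mean (1.72) and the highest muscle mean (3.7).

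Among the 36 measured genes, 14 were higher and 6 were lower in BAT at an adjusted p under 0.05 (limma with Benjamini-Hochberg adjustment over all genes), and 16 did not pass. That is 55.6% of the genes, against 38.4% of all 18194 genes, of which 21.0% were higher and 17.5% lower. With a difference of at least 2-fold there were 11 (30.6%, 9 higher and 2 lower), against 15.1% of all genes (1298 higher and 1455 lower). The replicates of the tissues did not overlap in 23 of 36 genes (63.9%), against 45.4% of all genes. The median difference was 0.27, against 0.15 over all genes. Since 28 genes had more than 1 probe set and up to 7, single probe sets were counted too. Of the 108, 28 were higher and 20 lower (44.4%), against 32.4% of all probe sets, of which 15.1% were higher and 17.3% lower. At 2-fold 22 were higher and 15 lower (34.3%), against 15.7% of all probe sets (6.10% higher and 9.56% lower). Without the 2 arrays of low 5′ signal, 25 of the 36 genes passed, while the count over all 18194 genes was 8953, against 6989 with them.

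**Figure D2:**
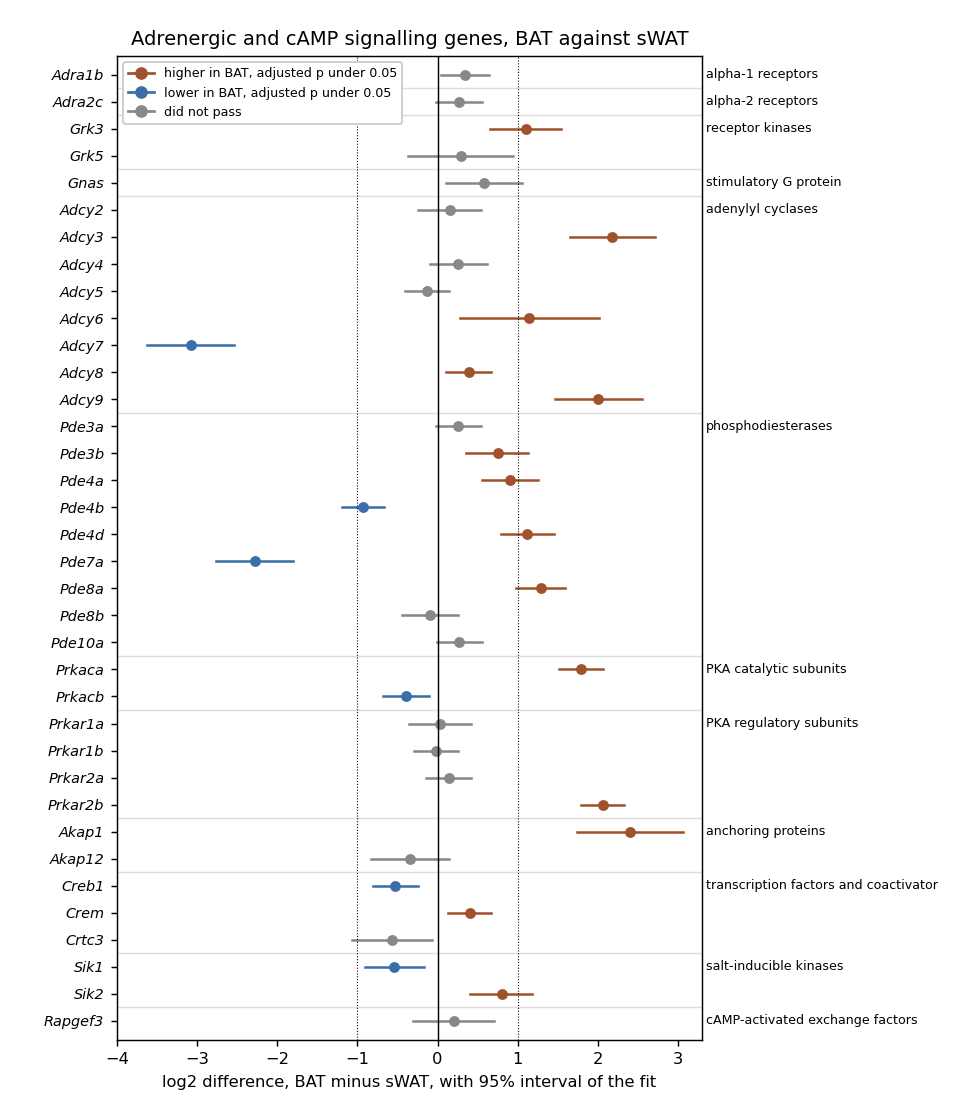
Log2 difference of BAT minus sWAT (horizontal axis) of each of the 36 genes, grouped by role, with the 95% interval of the fit and dotted lines at 2-fold. The differences run from -3.08 for Adcy7 to 2.4 for Akap1. Both signs occur among cyclases, phosphodiesterases, PKA catalytic and regulatory subunits, anchoring proteins, transcription factors and salt-inducible kinases.

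Of the adrenergic receptors on the list, Adra1b and Adra2c were measured, and neither passed. Adra1b, an alpha-1 receptor that acts through calcium, was at 0.29, -0.02, 0.06 and 0.2 in BAT replicates 1 to 4, against -0.32, -0.16, -0.25 and -0.08 in sWAT replicates 1 to 4. The tissues did not overlap, but the difference of 0.34 ± 0.13 did not pass the test (adjusted p = 0.0744, 95% interval 0.04 to 0.64). Adra2c, an alpha-2 receptor that restrains adenylyl cyclase, was at 0.28, 0.08, 0.12 and 0.14 in BAT, against -0.18, -0.05, -0.18 and -0.03 in sWAT. Here too all BAT replicates lay above all sWAT replicates without passing (0.27 ± 0.12, adjusted p = 0.117). Each gene passed in the fit without pairing of replicate numbers, with adjusted p = 0.0252 for Adra1b and 0.0368 for Adra2c.

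Of the receptor kinases, which phosphorylate occupied receptors and so end their signalling, Grk3 was higher in BAT. It was at 1.06, 1.25, 0.56 and -0.14 in BAT, against -0.32, -0.32, -0.33 and -0.7 in sWAT. BAT replicate 4 lay nearest to sWAT and still above every sWAT replicate. The difference was 1.1 ± 0.19, or 2.14-fold (adjusted p = 0.00374), and its 3 probe sets gave 0.92 to 1.2 and all passed. Grk5 did not pass (0.29 ± 0.28, adjusted p = 0.422). It was at 0.05, -0.35, 0.22 and 0.85 in BAT, against 0.12, 0.1, -0.09 and -0.5 in sWAT, and without replicate 4 the difference was -0.07.

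Gnas encodes the alpha subunit of the stimulatory G protein, which links beta receptors to adenylyl cyclase. It was at 0.34, 0.48, 0.56 and -0.17 in BAT, against -0.23, -0.16, -0.63 and -0.09 in sWAT. BAT replicates 1 to 3 were above all sWAT replicates, and BAT replicate 4 fell among them. The difference of 0.58 ± 0.20 did not pass (adjusted p = 0.0588), whereas it was 0.80 without replicate 4 and passed (adjusted p = 0.0164). The Gnas locus makes several transcripts, and its 5 probe sets ranged from 0.16 to 1.18, of which only 1450186_s_at passed (1.18 ± 0.19, adjusted p = 0.00341).

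The adenylyl cyclases, which make cAMP from ATP, held the largest differences in both directions among the enzymes of the list. Of the 8 measured cyclases, BAT had more of 4 and less of 1, and 3 did not pass. Adcy3 was at 1.55, 2.12, 1.91 and 0.77 in BAT, against -0.6, -0.49, -0.7 and -0.58 in sWAT. The sWAT replicates lay close together and BAT replicate 4 was the lowest of BAT without reaching them. The difference was 2.18 ± 0.22, or 4.53-fold (adjusted p = 0.00044), and the 4 probe sets gave 1.91 to 2.45 and all passed.

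Adcy9, a cyclase known for its weak response to forskolin, was at 0.97, 1.34, 2.05 and 0.73 in BAT, against -0.62, -0.51, -0.87 and -0.92 in sWAT. The tissues were well apart, with BAT replicate 3 the highest, and the difference was 2.0 ± 0.23, or 4.01-fold (adjusted p = 0.00073). All 4 probe sets passed, at 1.75 to 2.24. Its promoter window is the one shown above with a CRE core 24 bases before the start.

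Adcy7, a cyclase best known from blood and immune cells, went the other way. It was at -2.47, -1.78, -1.75 and -0.81 in BAT, against 1.4, 1.47, 0.95 and 1.69 in sWAT. No replicate came near the other tissue, and BAT replicate 4 was the nearest. The difference was -3.08 ± 0.23, or 8.44-fold higher in sWAT (adjusted p = 0.00013), the largest of the 36 genes, and its 3 probe sets passed at -3.89 to -1.88. Its tissues split as the B and T cell lists did (B cell means -2.2 to -1.75 in BAT and 1.91 to 2.6 in sWAT). Within BAT the B cell means did not share its order (-1.75, -2.19, -2.2 and -2.17 in replicates 1 to 4). The T cell, macrophage and general adipocyte means rose from BAT replicate 1 to 4, as Adcy7 did. The part of these cell types in the difference was not tested.

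Adcy6, a cyclase inhibited by calcium, passed narrowly. It was at -0.37, 0.63, 1.24 and 0.5 in BAT, against -0.78, 0.0, -1.48 and -0.32 in sWAT. The tissues overlapped, because BAT replicate 1 lay below sWAT replicates 2 and 4. The difference was 1.14 ± 0.37, or 2.21-fold (adjusted p = 0.0448 over genes), and it did not pass in the test over all probe sets (adjusted p = 0.0514). Its single probe set was the member most affected by the arrays of low 5′ signal: the arrays of BAT replicate 1 read 1.02 and -1.75, and those of sWAT replicate 3 read -2.56 and -0.4. Without those 2 arrays the difference was 1.22 (adjusted p = 0.00344), with the first arrays alone 1.95 (adjusted p = 0.0167) and with the second arrays alone 0.34 (adjusted p = 0.521). The call was lost without replicate 1, 2 or 4 (adjusted p = 0.0626, 0.0622 and 0.0652), and without replicate 3 the difference was 0.62 (adjusted p = 0.0204), below 2-fold.

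Adcy8, a calcium-stimulated cyclase, was slightly higher in BAT (0.39 ± 0.12, adjusted p = 0.0434) with no overlap of the tissues, and the call was lost when any 1 replicate was left out (adjusted p 0.0784 to 0.132). Its single probe set did not pass in the test over all probe sets (adjusted p = 0.0683). Adcy2, Adcy4 and Adcy5 did not pass, at 0.15, 0.26 and -0.13. In Adcy5, the calcium-inhibited relative of Adcy6, 1 of 4 probe sets was lower in BAT (-0.93 ± 0.16, adjusted p = 0.00414) and the other 3 gave 0.02 to 0.34.

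**Figure D3:**
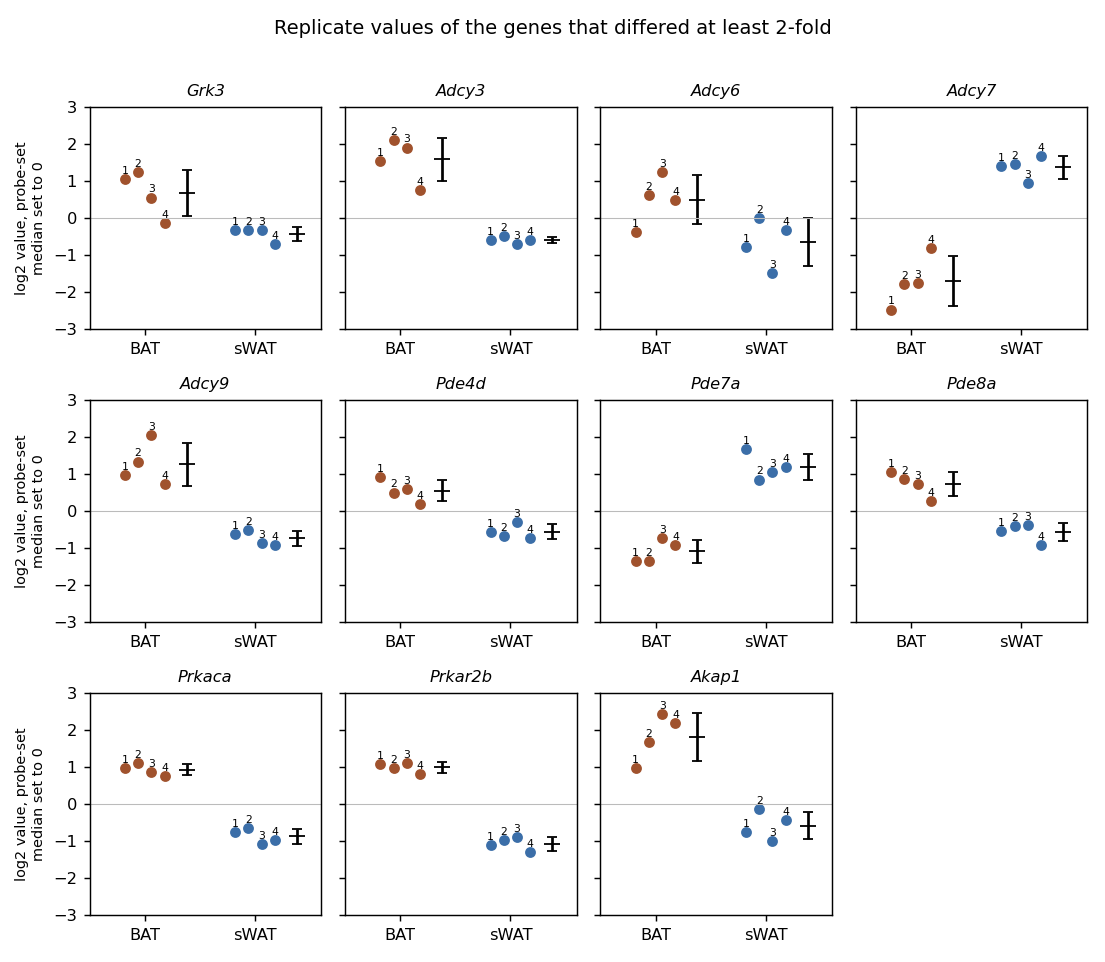
Log2 value of each replicate (vertical axis, probe-set medians set to 0) for the 11 genes that passed with at least 2-fold, BAT left of sWAT, points numbered by replicate, with bars for the mean and SD (n = 4). Adcy7 and Pde7a lay lower in every BAT replicate, 8 genes lay higher in every BAT replicate, and Adcy6 overlapped.

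Of the 9 phosphodiesterases, which end the signal by hydrolysing cAMP, 4 were higher in BAT, 2 were lower and 3 did not pass. Pde8a, a cAMP-specific enzyme of high affinity, was at 1.05, 0.87, 0.72 and 0.28 in BAT, against -0.53, -0.41, -0.37 and -0.92 in sWAT. The tissues did not overlap, and replicate 4 was the lowest in both. The difference was 1.29 ± 0.13, or 2.44-fold (adjusted p = 0.0004), and both probe sets passed.

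Pde4d, of the cAMP-specific family inhibited by rolipram, was at 0.91, 0.5, 0.6 and 0.2 in BAT, against -0.56, -0.68, -0.29 and -0.73 in sWAT. All BAT replicates were above all sWAT replicates, and the difference was 1.12 ± 0.14, or 2.17-fold (adjusted p = 0.00101). Its mean joined unlike probe sets, 1435280_at at 2.11 ± 0.13 (adjusted p = 9.9e-05) and 1459311_at at 0.13 ± 0.19 (adjusted p = 0.621). Pde4a, of the same family, was higher by 0.91 ± 0.14 (adjusted p = 0.00294). Pde3b, the enzyme through which insulin lowers cAMP in adipocytes, was higher by 0.75 ± 0.16 (adjusted p = 0.0108), although its tissues overlapped.

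Pde7a, a cAMP-specific enzyme known from T cells among others, was at -1.35, -1.35, -0.74 and -0.92 in BAT, against 1.68, 0.85, 1.06 and 1.18 in sWAT. The tissues were far apart, and all 7 probe sets were lower in BAT, at -2.72 to -1.73. The difference was -2.28 ± 0.20, or 4.87-fold higher in sWAT (adjusted p = 0.00026). It lay on the same side as the T cell list (list means -1.87 to -1.06 in BAT and 1.5 to 2.3 in sWAT), whose part was not tested.

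Pde4b, a family member prominent in immune cells, was at -0.35, -0.47, -0.44 and -0.42 in BAT, against 0.54, 0.5, 0.51 and 0.48 in sWAT. The spread of these averaged values within each tissue was very small and the tissues did not overlap (-0.93 ± 0.11, adjusted p = 0.0008). The 2 arrays behind BAT replicate 1 lay further apart, at -0.68 and -0.03. Of its 6 probe sets, 1422473_at, 1422474_at and 1442700_at were lower in BAT, at -1.41, -2.13 and -2.95, whereas the other 3 gave 0.22 to 0.4 and did not pass. With the median of its probe sets in place of their mean, the difference was -0.48 (adjusted p = 0.0201). Pde3a (0.26), Pde8b (-0.1) and Pde10a (0.27) did not pass as genes, with 1 of 5 Pde10a probe sets higher (0.48 ± 0.13, adjusted p = 0.0318).

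**Figure D4:**
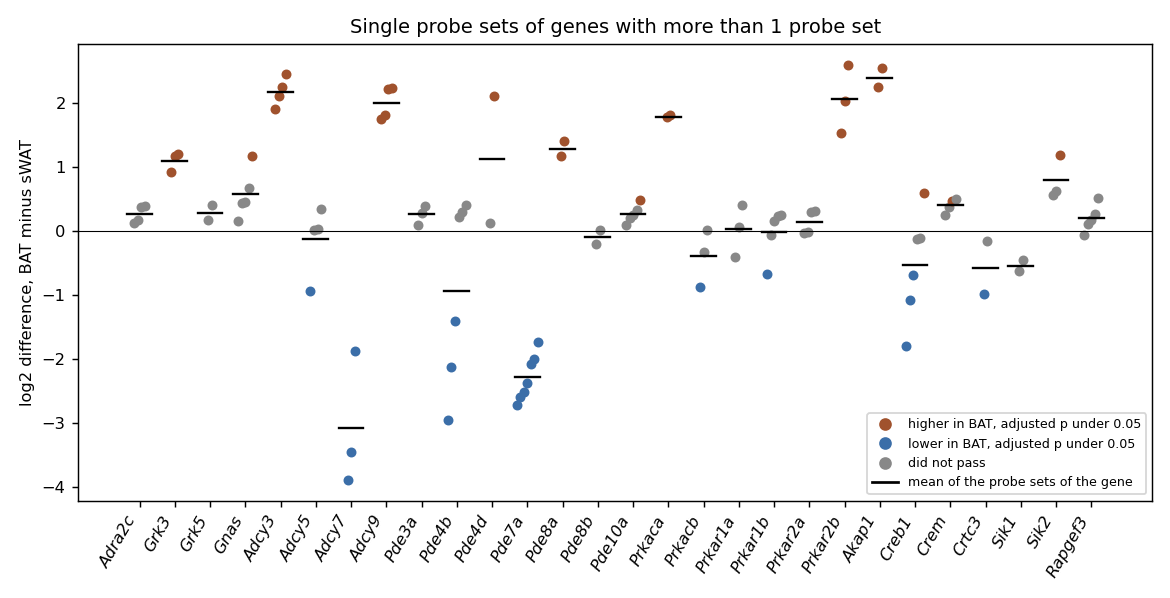
Log2 difference of BAT minus sWAT (vertical axis) of every probe set of the 28 genes with more than 1, coloured by the test over all probe sets, with a bar at the mean of the gene. The 7 probe sets of Pde7a lie together at -2.72 to -1.73, whereas those of Pde4b run from -2.95 to 0.4 and those of Creb1 from -1.8 to 0.6.

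The 6 PKA subunits did not move together: 2 were higher, 1 was lower and 3 did not pass. Prkaca, the catalytic subunit alpha found in most cells, was at 0.98, 1.1, 0.86 and 0.76 in BAT, against -0.76, -0.65, -1.09 and -0.98 in sWAT. Replicates of each tissue lay close together and the tissues were far apart. The difference was 1.79 ± 0.11, or 3.47-fold (adjusted p = 7.9e-05), with both probe sets at 1.78 and 1.81. Prkacb, the catalytic subunit beta, was lower by a small amount (-0.39 ± 0.12, adjusted p = 0.0389), with 1 of 3 probe sets passing (-0.87), and the call was lost without replicate 1, 2 or 4 (adjusted p = 0.105, 0.131 and 0.133).

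Prkar2b, the regulatory subunit that predominates in mouse adipose tissue, was at 1.07, 0.97, 1.11 and 0.8 in BAT, against -1.11, -0.97, -0.9 and -1.31 in sWAT. It had the lowest adjusted p of the 36 genes (2.06 ± 0.11, or 4.18-fold, adjusted p = 5.3e-05), and all 3 probe sets passed at 1.54 to 2.6. The other regulatory subunits did not pass. The 95% intervals of the difference were -0.36 to 0.42 for Prkar1a, -0.3 to 0.26 for Prkar1b and -0.14 to 0.42 for Prkar2a, all of them short of 2-fold in either direction. Prkar1a, at 0.03 ± 0.17, is the gene with the full CRE shown above. In Prkar1b, 1 of 5 probe sets was lower (1434325_x_at, -0.67 ± 0.16, adjusted p = 0.019).

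Akap1, which anchors PKA to the outer mitochondrial membrane, had the largest difference of those higher in BAT. It was at 0.98, 1.68, 2.42 and 2.18 in BAT, against -0.77, -0.14, -1.0 and -0.44 in sWAT. The tissues did not overlap. BAT replicate 1 was the lowest of BAT, with its first array at 2.2 and its second, of low 5′ signal, at -0.24. The difference was 2.4 ± 0.28, or 5.28-fold (adjusted p = 0.00075), and both probe sets passed, at 2.25 and 2.55. It was 2.95 with the first arrays alone, 1.85 with the second arrays alone and 2.59 without the 2 arrays of low 5′ signal. Akap12, a scaffold that binds PKA and beta receptors, did not pass (-0.35 ± 0.20, adjusted p = 0.209).

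The transcription factors and their coactivator differed by less than 2-fold. Creb1, the factor that PKA phosphorylates, was at -0.3, -0.3, -0.18 and -0.38 in BAT, against 0.38, 0.14, 0.21 and 0.24 in sWAT. The tissues did not overlap (-0.53 ± 0.12, adjusted p = 0.0116). It was the only gene of the 36 with probe sets passing in both directions: 1452901_at, 1428755_at and 1423402_at gave -1.8, -1.08 and -0.69, and 1421583_at gave 0.6 ± 0.17 (adjusted p = 0.0329). The call for the gene was lost without replicate 2 (adjusted p = 0.0503) or 4 (adjusted p = 0.0504).

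Crem, whose short products repress CRE-driven genes, was higher in BAT by 0.4 ± 0.11 (adjusted p = 0.0291), a call lost when any 1 replicate was left out (adjusted p 0.0606 to 0.1). Crtc3, a CREB coactivator, was at -0.67, -0.23, -0.29 and -0.12 in BAT, against 0.72, 0.1, -0.08 and 0.24 in sWAT. Replicate 1 was the most extreme in both tissues, and the difference did not pass (-0.57 ± 0.21, adjusted p = 0.0706, 95% interval -1.07 to -0.07), whereas it passed in the fit without pairing (adjusted p = 0.0317).

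The salt-inducible kinases, which hold CRTC coactivators in the cytoplasm until PKA inhibits them, differed in opposite directions. Sik2 was at 0.25, 0.17, 0.86 and 0.36 in BAT, against -0.56, -0.1, -0.22 and -0.66 in sWAT. All BAT replicates were above all sWAT replicates, at 0.8 ± 0.16, or 1.74-fold (adjusted p = 0.00825). Sik1, whose transcription is itself switched on by cAMP, was lower in BAT (-0.54 ± 0.16, adjusted p = 0.0322), and the call was lost without replicate 1, 2 or 4 (adjusted p = 0.0628, 0.151 and 0.104). Neither of its probe sets passed in the test over all probe sets (adjusted p = 0.055 and 0.0581). Rapgef3, the cAMP-activated exchange factor Epac1 that works without PKA, was at -0.15, 0.64, 0.71 and -0.49 in BAT, against -0.11, 0.37, -0.24 and -0.11 in sWAT. BAT replicates lay both above and below sWAT, and the difference of 0.2 ± 0.22 did not pass (adjusted p = 0.462).

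BAT replicate 4 was the BAT replicate nearest to sWAT in 10 of the 14 genes that were higher in BAT (71.4%), against 44.5% of the 3812 genes of the array that were higher in BAT, and in 2 of the 6 lower genes, against 49.6% of 3177. This replicate had the lowest brown adipocyte mean (1.72), the highest muscle mean (3.7) and the lowest Xist value of the BAT replicates, and their part was not tested. Of the 20 genes that passed, 7 did so under all 13 alternative settings: Adcy3, Adcy7, Adcy9, Pde7a, Prkaca, Prkar2b and Akap1. No gene that passed changed direction under any of them.

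Other genes of the pathway were followed by a list of 56 genes, 50 of them measured. In BAT 12 were higher, 16 were lower and 22 did not pass, and with at least 2-fold there were 4 higher and 10 lower. That is 56.0% called and 28.0% at 2-fold, against 38.4% and 15.1% of all genes. The median difference was -0.25, against 0.15 for all genes. Arrb2, the arrestin that uncouples receptors, was at -2.03, -1.38, -1.21 and -0.33 in BAT, against 1.43, 0.92, 0.69 and 1.44 in sWAT (-2.36 ± 0.27, adjusted p = 0.00076). The PKA inhibitors Pkib (-2.09 ± 0.15, adjusted p = 0.00012) and Pkig (-1.61 ± 0.20, adjusted p = 0.00094) were lower without overlap of the tissues, whereas the inhibitor Pkia (0.62 ± 0.31, adjusted p = 0.144) and the arrestin Arrb1 (-0.81 ± 0.30, adjusted p = 0.0717) did not pass. Also lower without overlap were Rapgef6, an exchange factor for Rap proteins (-2.2), Ezr, the membrane linker ezrin (-1.67), and Gnai2, an inhibitory G protein alpha subunit (-1.52). These stood on the side of the B and T cell lists, whose part was not tested.

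The 4 pathway genes at least 2-fold higher in BAT were Pde7b, Rgs2, Popdc3 and Popdc2. Pde7b, the close relative of Pde7a, was at 1.74, 0.81, 1.24 and 0.46 in BAT, against -0.56, -0.38, -0.45 and -0.6 in sWAT (1.56 ± 0.21, adjusted p = 0.00152). Pde7a and Pde7b thus differed in opposite directions, each without overlap of the tissues. Rgs2, which speeds the shut-off of G protein signals, was higher by 1.5 ± 0.18 (adjusted p = 0.00093). Popdc3 and Popdc2, cAMP-binding membrane proteins of striated muscle, were higher by 1.49 and 1.14, on the side of the muscle fibre list, whose part was not tested.

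Genes that are known to respond to cAMP in adipocytes formed a list of 22, with 21 measured. Of these, 10 passed on the side of BAT, 8 of them by at least 2-fold, 1 passed on the side of sWAT, and 10 did not pass. That is 52.4% called and 38.1% at 2-fold, against 38.4% and 15.1% of all genes. The leading ones were Ucp1 (7.58 ± 0.49, adjusted p = 8.5e-05), the fatty acid elongase Elovl3 (5.45 ± 1.06, adjusted p = 0.00697) and the droplet protein Cidea (3.68 ± 0.65, adjusted p = 0.00461). These were followed by the coactivator Ppargc1a (3.24 ± 0.25, adjusted p = 0.00014), the thyroid hormone deiodinase Dio2 (2.65 ± 0.54, adjusted p = 0.00808) and the growth factor Vegfa (2.02 ± 0.20, adjusted p = 0.00042). Several of these also mark brown adipocytes. Dio2 was at 4.12, 2.32, 1.71 and 0.31 in BAT, against -0.56, -0.6, -0.45 and -0.54 in sWAT, so its BAT replicates spanned a wide range that ended just above sWAT. Elovl3 was at 5.89, 6.82, 6.86 and 0.1 in BAT, against -0.89, -0.11, -0.59 and -0.54 in sWAT, so BAT replicate 4 lay close to sWAT and far from the other BAT replicates. Leaving out 1 replicate gave differences of 4.78 to 7.05 for Elovl3, 2.79 to 4.32 for Cidea, 1.98 to 3.25 for Dio2 and 6.91 to 8.08 for Ucp1, all of which passed, and those of Elovl3, Dio2 and Ucp1 were highest without replicate 4. The other 2-fold genes were Rgs2 and the nuclear receptor Nr4a2 (1.04 ± 0.16, adjusted p = 0.00232). Named after their values were seen, other early-response genes of the list varied: the phosphatase gene Dusp1 was higher (0.92 ± 0.24, adjusted p = 0.0231), Fos was lower (-0.79 ± 0.21, adjusted p = 0.0234), and Nr4a1 (0.12 ± 0.18, adjusted p = 0.604) and Per1 (0.07 ± 0.39, adjusted p = 0.895) did not pass.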

How the data were processed

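RNA of 4 BAT and 4 sWAT replicates had been measured on 16 Affymetrix mouse arrays, 2 per replicate. Per the methods, the authors used RMA in GeneSpring GX 12.1, with quantile normalization, and took the median of all samples as baseline, and the deposited values are log2 values whose median is 0 for every probe set over the 16 arrays. No genome build is given in the sources used here. Such values give no signal over background. The number of arrays, here 4 replicates per tissue with 2 arrays averaged for each, limits the precision.

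Gene symbols came from the platform annotation, with 34958 naming 1 symbol, 932 several and 9211 none. The 2 arrays of a replicate were averaged, and a gene took the mean of its probe sets with 1 symbol. BAT minus sWAT was fitted by lmFit and eBayes of limma 3.58.1 (R 4.3.3), blocking on replicate number because the methods used a paired test, over 18194 genes and over 45101 probe sets, each with Benjamini-Hochberg adjustment. The threshold was an adjusted p of 0.05, also counted at 2-fold. The fit was tested on simulated data. Deviations of same-numbered BAT and sWAT replicates correlated at -0.23, 0.064, -0.348 and 0.231, so the numbers did not deviate together. The highest correlation over all numbers was 0.523, between BAT replicate 1 and sWAT replicate 3, which each hold an array of low 5′ signal. The 2 arrays within these replicates correlated at 0.51 and 0.336, against 0.848 to 0.917 in the others.

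The members and lists were chosen with earlier results of these data known. Values in all replicates are given for genes that passed at 2-fold, for the largest difference in each role and for genes with probe sets passing in both directions, and list genes are named from 2-fold, up to 6 per direction; Grk5, Pde4b, Pde7b, Arrb2, Arrb1, Pkia, Dio2, Elovl3, Nr4a2, Dusp1, Fos, Nr4a1 and Per1 were given more than this rule asks. Other settings tried were a fit without this block, the paired test of the methods, first or second arrays alone, array medians, scaling to Gapdh and Actb, leaving out the arrays of low 5′ signal or each replicate, and other rules for joining probe sets. Background correction, filtering of dim probes and scan batches could not be varied on normalized values. Promoters are RefSeq windows of GRCm38.p6. Plots came from matplotlib 3.10.9 under Python 3.11.15.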

Additional observations from a re-analysis of the deposited data

Results flagged for a closer look

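Of 72 groups of 4 replicates examined (36 genes in each tissue), 1 held a value far from the others. Grk3 was at -0.7 in sWAT replicate 4, against -0.33 to -0.32 in the other 3 sWAT replicates. Its gap to the nearest replicate took up 0.962 of the range, which is above Dixon's critical value at 95% for 4 samples. Chance flags about 1 in 20 such groups.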

How the results depend on the processing

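No gene of the list reversed among those that passed. In the fit with no replicate block, 26 of the 36 genes and 64 of the 108 probe sets passed, against 20 and 48 in the paired fit, and Adra1b, Adra2c, Gnas, Pde3a, Pde10a and Crtc3 were added, while all genes passing numbered 8573, against 6989. With the methods' paired test over 4 replicate pairs, 13 genes of the list passed (9 higher), 23 probe sets (23 at 2-fold, against 37) and 22 of the other pathway and cAMP-responsive genes (against 38), with 3567 genes, 5116 probe sets (against 14605) and 3388 probe sets at 2-fold (against 7064) in all. Scaling to Gapdh and Actb, which raised the median SE over genes to 0.587, against 0.141, left 7 genes (5 higher, 2 lower, all at 2-fold), 22 probe sets and 9 other genes (9 at 2-fold, against 21), and 974 genes and 2252 probe sets in all, each figure the same at 2-fold. Leaving out 1 replicate gave 14 to 18 genes of the list, with 3 to 6 lower, with 3 lower both without replicate 2 and without replicate 4, and 4627 to 6766 genes in all, the fewest without replicate 2. Subtracting array medians moved the median of all genes to 0.09, against 0.15. For the 21 list genes at 2-fold outside the 36, alternatives were chosen after seeing the data: 6 passed under every one and 0 reversed. The cause of these shifts was not tested. Centred values give no level, so dim probe sets could not be set aside.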
